A study of Oryza sativa with 12 samples.

Results

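Panicles of the rice cultivar N22 (Nagina 22), which the labels call heat tolerant, were compared with panicles of IR64, which they call susceptible, in open-field controls without any heat treatment. The comparison rests on 6 of the 12 arrays of the series, 3 of N22 and 3 of IR64, and on all 57194 probe sets that are not control or reporter probe sets, out of 57381. It asks how the panicle transcriptomes of the cultivars already differed before heat is considered. The remaining 6 arrays are 3 of N22 and 3 of IR64 panicles kept for 8 days at 5 °C above the ambient temperature. They are used below to read the same cultivar difference on other arrays. The estimate of spread behind every SE and adjusted p also draws on them. So do the filter on low values, the background level and the choice of each gene's brightest probe set.

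Both cultivars were sown at one site. Planting was staggered so that they would flower together, main tillers were marked when they reached booting, and control panicles were taken on the day on which the heated ones were harvested. How many panicles went into a sample, and whether replicates came from separate plants, is not stated in the labels, so p-values measure the spread between these arrays alone, which may be technical. The stage that each panicle had reached is not recorded beyond the booting mark. Neither the stage of the panicles nor the match of the probes to the sequence of each cultivar was measured here, and a difference in either cannot be told apart from one of cultivar.

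A rice panicle passes from branching and floral organ formation through meiosis and pollen development to flowering, and its fertilised florets then become grains. Each of these steps has its own genes: MADS-box regulators set floral organ identity, cyclins and replication factors mark dividing cells, and the endosperm fills with starch and with storage proteins of the glutelin, prolamin and globulin families. Green floral bracts carry photosynthesis genes, and the rachis and branches lay down secondary walls of cellulose and lignin. In bulk panicles, fewer cells of a type and less RNA per cell cannot be told apart.

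Markers of these tissues were read first, on the log2 scale of the deposited values, where a background level of 4.20 was set by the highest value of 64 reporter probe sets. Of 14 panicle and flower markers, 11 lay above background on all 3 N22 control arrays and 11 on all 3 IR64 control arrays. The ovule gene MADS13 and the carpel gene DL lay at background on all 3 arrays of both cultivars. The mean of the panicle markers was 6.19 to 6.29 over the N22 arrays and 8.62 to 8.70 over the IR64 arrays.

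Of the 7 marker lists, the developing seed list separated the cultivars by the most. Its mean was 12.72 to 12.79 on the N22 control arrays and 4.04 to 4.19 on the IR64 control arrays, where 9 of the 11 genes lay at background. GLB1, among the 11 by its symbol alone, may not be a seed globulin gene. GLUB4 was the 1 seed marker at background in N22. Leaf or green tissue markers averaged 8.42 to 8.47 in N22 and 12.28 to 12.32 in IR64, and stem secondary wall markers 5.17 to 5.32 in N22 and 9.93 to 10.06 in IR64. Markers of dividing cells averaged 7.67 to 7.78 in N22 and 6.89 to 7.04 in IR64. Tapetum markers were at background for 5 of 7 genes in N22 and for 6 of 7 in IR64, and meiocyte markers for 3 of 7 genes in each. Some markers are also members of the gene lists below, so markers and lists are not separate readings of those genes. The part of tissue content in each gene difference below was not tested.

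**Figure D1:**
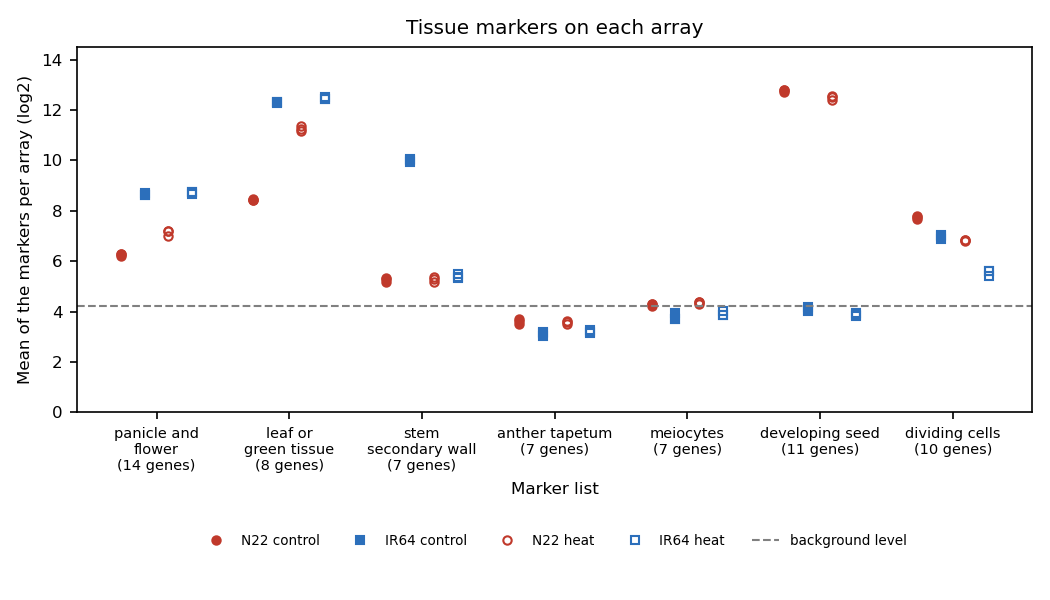
Mean log2 value of the markers of each tissue on every array, for N22 control, IR64 control, N22 heat and IR64 heat (3 points each), with the background level of 4.20 as a dashed line. Developing seed markers lie between 12.72 and 12.79 on the N22 control arrays and between 4.04 and 4.19 on the IR64 control arrays, while stem wall and green tissue markers are higher in IR64 controls.

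The arrays of each control group were close to each other. Their pairwise correlations lay between 0.994 and 0.997, against 0.790 to 0.796 between a N22 and an IR64 array, and the median SD of a probe set over 3 arrays was 0.10 in N22 and 0.09 in IR64. The share of probe sets above background was 33.5% on each N22 array and 34.2% to 34.4% on the IR64 arrays. The control probe sets for RNA integrity differed between the cultivars. The 3′ signal of GAPDH exceeded its 5′ signal by 8.59 ± 0.14 in N22 and by 4.79 ± 0.18 in IR64 (log2, SD, n = 3 each), and that of ubiquitin by 2.21 ± 0.07 in N22 and 1.45 ± 0.03 in IR64. Each of these separations gave p = 0.10 in a two-sided exact permutation test, which is the smallest p that 3 arrays against 3 allow. Hybridisation spike-ins, mean of 9 probe sets, were 0.68 higher in N22 (exact permutation p = 0.10), labelling spike-ins were 0.36 higher (exact permutation p = 0.40), and 5 ribosomal RNA probe sets were 0.55 to 1.49 higher. The part of these in the gene differences was not tested.

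The difference between the cultivars took in most of the transcripts measured. Of 29801 probe sets that passed the filter on low values, 21047 (70.6%) were called at a limma adjusted p under 0.05, 10449 (35.1%) higher and 10598 (35.6%) lower in N22. With each array centred on its median, which raises the median difference by 0.20, the split was 14534 higher and 9119 lower. At 2-fold or more, 12423 probe sets (41.7%) were called, 5695 (19.1%) higher and 6728 (22.6%) lower in N22, and 6838 higher and 5982 lower after that centring, so which direction holds more calls depends on the scaling. With 1 probe set per gene, 13079 of 16069 genes (81.4%) were called, 6309 (39.3%) higher and 6770 (42.1%) lower in N22. Values of all 3 arrays of one cultivar lay outside those of the other for 74.5% of probe sets and 84.4% of genes. The counts of each gene group below are read against these shares. A group holds the genes whose names matched a pattern, and "on the array" counts only those. Of 17905 genes paired with probe sets, 2454 have an informative name, so members of a family may be missing.

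The largest differences ran toward N22. Differences of at least 8 on the log2 scale were found for 124 probe sets higher and 30 lower in N22, and differences of at least 5 for 452 higher and 317 lower. At 3 or more the balance was the other way, with 1243 higher and 1762 lower in N22.

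The named genes with the largest excess in N22 were mostly those of seed storage. RAG2 (LOC4342723, shared probe set), a seed allergenic protein of the alpha-amylase inhibitor family, had 15.18, 15.10 and 15.06 on the N22 control arrays, against 2.87, 2.30 and 2.30 on the IR64 control arrays. It lay near the top of the scale in N22 and at background in IR64, at least 1922-fold higher (12.62 ± 0.13, SE, adjusted p = 2.27e-13). A shared probe set is one whose name marks it as able to match several transcripts, so a value there may belong to close relatives.

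The glutelins are the main storage proteins of rice endosperm. GLUA3 (LOC4333164) had 14.82, 14.80 and 14.88 in N22, against 2.65, 2.45 and 2.41 in IR64, at least 1585-fold higher (adjusted p = 4.41e-15). GLUD1 (LOC4328877) had 14.37, 14.29 and 14.29 in N22, against 2.50, 2.51 and 2.49 in IR64, at least 1107-fold higher (adjusted p = 8.3e-16). GLUA1 (LOC4327027, shared) was at least 936-fold higher, GluB5 (LOC4328968, shared) at least 861-fold and GLUA2 (LOC4348563, shared) at least 1541-fold. All 5 lay at background on every IR64 control array. A second probe set of GLUA2 went the other way, with a mean of 4.72 in N22 and 5.51 in IR64.

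PROLM25 (LOC4342688, shared), a prolamin, had 14.44, 14.36 and 14.31 in N22, against 2.38, 2.33 and 2.32 in IR64, at least 1149-fold higher. The allergen genes RA5 (LOC4342727, shared) and RAG1 (LOC4342722) were at least 1045-fold and at least 424-fold higher. The exception was GLB1 (LOC4337720), which entered the list by its symbol alone. Whether it codes for a storage globulin was not checked. It had 8.59, 8.59 and 8.64 in N22, against 10.40, 10.33 and 10.36 in IR64, lower in N22 by 3.38-fold (adjusted p = 2.09e-09). The storage protein and allergen names took in 12 genes tested, of 13 on the array. Of these, 9 were higher in N22, 1 (GLB1) was lower and 2 were not called, where 39.3% of all genes were higher and 42.1% lower. Their median was 11.35, and 9.95 once levels under background were set to it, against -0.03 over all genes.

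Other genes with a large excess in N22 code for seed vacuole, lipid transfer and folding proteins. TIP3-1 (LOC4348981, shared), a vacuolar water channel of a type known from seed storage vacuoles in Arabidopsis, had 14.70, 14.69 and 14.72 in N22, against 3.05, 2.70 and 2.98 in IR64, at least 1450-fold higher. LTP-2 (LOC4331362), a lipid transfer protein gene, was at least 642-fold higher. PDIL1-4 (LOC4327971), a protein disulfide isomerase that folds proteins in the endoplasmic reticulum (ER), had 12.32, 12.29 and 12.19 in N22, against 5.49, 5.18 and 5.49 in IR64, a 118-fold difference. CPK23 (LOC4349249, shared), a calcium-dependent protein kinase, was 190-fold higher, with 14.71 to 14.79 in N22 and 6.94 to 7.46 in IR64.

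**Figure D2:**
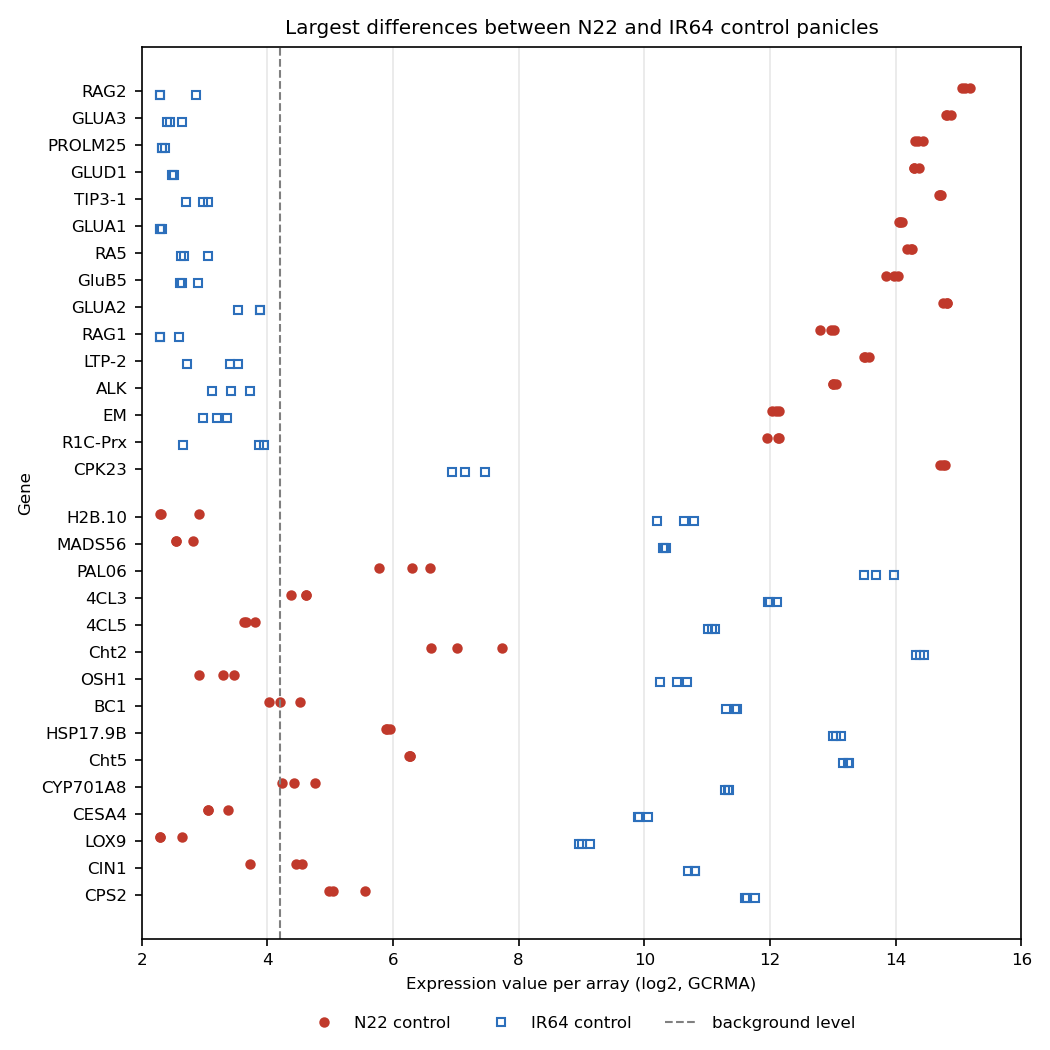
Log2 value on each N22 control array (filled circles) and each IR64 control array (open squares) for the 15 named genes with the largest excess in N22 (upper rows) and the 15 with the largest deficit (lower rows), with the background level as a dashed line. In 14 of the upper 15 genes all 3 IR64 arrays lie at or below background, while 9 of the lower 15 genes stayed above it on at least 1 N22 array.

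Starch is made in the endosperm from sucrose by sucrose synthases, ADP-glucose pyrophosphorylase, starch synthases and branching enzymes. ALK (LOC4340567), a starch synthase that sets gelatinisation temperature, had 13.01, 13.01 and 13.05 in N22, against 3.73, 3.12 and 3.43 in IR64, at least 453-fold higher (adjusted p = 5.5e-12). SUS3 (LOC4343910), a sucrose synthase, had 13.55, 13.52 and 13.35 in N22, against 6.37, 6.33 and 6.19 in IR64, 144-fold higher. AGPS2 (LOC4345339, shared), a subunit of ADP-glucose pyrophosphorylase, was 26.3-fold higher, SUS4 (LOC4332788) was 9.72-fold higher and TPP3 (LOC4343959), a trehalose-6-phosphate phosphatase, at least 86.7-fold. No value of any of these genes overlapped between the cultivars, as for 84.4% of all genes. The rules that named them favour genes whose arrays lie apart.

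GBSS1 and SS1 were picked after their values were seen. GBSS1 (LOC4340018, shared), the granule-bound starch synthase that makes amylose, had 15.31, 15.33 and 15.30 in N22, against 8.41, 5.96 and 5.56 in IR64, where the first array stood apart (8.67 ± 0.78, adjusted p = 2.08e-06). SS1 (LOC9269493), a soluble starch synthase, was 27.3-fold higher in N22, and the marker Sbe1 (LOC4342117, shared), a branching enzyme, was 20.4-fold higher.

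The other side of the list held genes of sugar release and transport. CIN1 (LOC4329561), a cell wall invertase that splits sucrose outside cells, had 4.56, 3.73 and 4.45 in N22, against 10.70, 10.80 and 10.80 in IR64, 91.6-fold lower in N22, where 2 of 3 arrays lay above background. The sugar transporter genes SWEET1A (-3.14 ± 0.09), SWEET5 (at background in N22, with a mean of 6.74 in IR64) and SWEET4 (-1.83 ± 0.06) were lower too. Over 57 starch and sucrose genes tested, of 64 on the array, 25 were higher in N22, 26 lower and 6 not called, with a median of -0.06 (0.14 with each array centred on its median). These shares, 43.9% higher and 45.6% lower, are near those of all genes.

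Late embryogenesis abundant (LEA) proteins protect drying tissues, and abscisic acid (ABA) signalling runs through PP2C phosphatases and SAPK kinases. EM (LOC4338499), a LEA protein gene, had 12.09, 12.14 and 12.03 in N22, against 2.98, 3.20 and 3.36 in IR64, at least 237-fold higher. The dehydrin gene rab25 (LOC4326935, shared) was at least 44.1-fold higher, PP2C31 at least 33.9-fold and PP2C27 by 5.88 ± 0.11. VP1 (LOC4324314, shared), a transcription factor of seed ABA response that was picked after its values were seen, had 10.11, 9.96 and 9.92 in N22, against 3.66, 3.25 and 3.01 in IR64. R1C-Prx (LOC4344045), a peroxiredoxin of the 1-Cys type known from seeds, was at least 234-fold higher. In the other direction, SAPK5 (-3.96), PP2C78 (-3.94), PP2C48 (-2.64) and SAPK6 (-1.99) were lower in N22. Of 79 genes tested, of 80 on the array, 37 were higher, 30 lower and 12 not called (median 0.10), 46.8% and 38.0% against 39.3% and 42.1% over all genes.

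The largest deficits in N22 included genes of lignin synthesis. Lignin is built from phenylalanine through PAL, 4CL, HCT and CAD enzymes, and laccases join its units. PAL06 (LOC4330040), a phenylalanine ammonia-lyase, had 5.78, 6.31 and 6.59 in N22, against 13.49, 13.98 and 13.68 in IR64, 180-fold lower in N22 (-7.49 ± 0.21, adjusted p = 2.57e-10). The 4-coumarate:CoA ligase gene 4CL3 (LOC4328485) had 4.37, 4.62 and 4.62 in N22, against 11.97 to 12.11 in IR64, 179-fold lower. 4CL5 (LOC4345717) lay at background in N22 and was at least 117-fold lower. The groups did not overlap for any of them, which the rule that named them required. The N22 values sat close to background for both ligases.

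CAD3 (shared; -3.81 ± 0.08), a cinnamyl alcohol dehydrogenase, and HCT1 (-3.47 ± 0.08), an acyltransferase of the pathway, were also lower in N22. Of 26 genes tested, of 29 on the array, 20 were lower in N22, 2 were higher (4CL2, with 1 of 3 IR64 arrays above background, and LAC15 at least 1.24-fold) and 4 were not called. That is 76.9% lower against 42.1% of all genes, with a median of -2.68, and -2.42 once levels under background were set to it.

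Secondary wall cellulose is made by 3 cellulose synthases that work together, and all 3 were lower in N22. CESA4 (LOC4324625) had 7.17, 7.26 and 7.28 in N22, against 12.71, 12.90 and 12.99 in IR64, 49.7-fold lower, and a second, shared probe set was at least 54.1-fold lower. CESA7 (LOC4348853) was at least 55.3-fold lower and CESA9 (LOC4347093) at least 20.8-fold. BC1 (LOC4333114), a COBRA-like protein needed for stiff culms, had 4.03, 4.52 and 4.21 in N22, against 11.47, 11.44 and 11.30 in IR64, 142-fold lower, with 2 of 3 N22 arrays above background. The 2 remaining genes of this list of 6, both relatives of BC1, were higher in N22: BC1L6 (LOC4343844), with 9.17, 9.17 and 9.05 in N22, against 5.41, 5.30 and 5.45 in IR64, and BC1L9 (1.94 ± 0.08). The list's median was -5.50.

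Diterpenoid phytoalexins are antimicrobial compounds that rice makes through copalyl diphosphate synthases (CPS), kaurene synthase-like enzymes (KSL) and cytochrome P450s. CYP701A8 (LOC4341343) had 4.42, 4.24 and 4.76 in N22, against 11.33, 11.28 and 11.35 in IR64, 115-fold lower in N22. CPS2 (LOC9266189) had 5.55, 5.05 and 4.99 in N22, against 11.76, 11.61 and 11.63 in IR64, 88.6-fold lower. CYP71Z7 (LOC4329726) was 50.7-fold lower and CYP99A2 (LOC4335096) at least 19.7-fold. Of 14 genes tested, of 17 on the array, 12 were lower in N22 (85.7% against 42.1% of all genes), 0 were higher and 2 were not called. The uncalled genes, KS10 and MAS, lay at background on all 6 arrays, and so did CPS4, which counts among the 12. N22 lay at background for 10 of the 14. The median was -3.64, and -2.40 once levels under background were set to it.

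Other defence and detoxification genes were lower as well. Chitinases break down fungal walls, and Cht5 (LOC4336265) had 6.27, 6.27 and 6.26 in N22, against 13.26, 13.24 and 13.17 in IR64, 124-fold lower in N22. PBZ1 (LOC4352491), a pathogenesis-related protein of the PR10 family, had 9.42, 9.73 and 9.84 in N22, against 15.41, 15.32 and 15.31 in IR64, where it was near the top of the scale, 51.3-fold lower. The chitinase genes RC24 (37.8-fold) and Cht6 (at least 6.56-fold) were lower, while Cht4 was higher in N22 by 2.08 ± 0.42. Cht2 (LOC4349267) was 154-fold lower on its brightest probe set, but its 3 probe sets disagreed: one more gave means of 6.86 in N22 and 12.89 in IR64, and the other 8.10 in N22 and 2.45 in IR64. Of 13 defence protein genes tested, of 14 on the array, 10 were lower (76.9%, against 42.1% of all genes), 1 higher and 2 not called (median -3.78).

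Glutathione S-transferases conjugate toxic compounds, and 4 of their genes are given here, all lower in N22. GSTZ5 had 6.35, 6.21 and 5.98 in N22, against 11.84, 11.84 and 11.42 in IR64, and GSTU6 had 5.08, 5.23 and 5.08 in N22, against 10.61, 10.38 and 10.43 in IR64. GST1 (shared) had 5.04 to 5.38 in N22, against 9.02 to 9.34 in IR64, and GSTF1 was at least 7.27-fold lower. Of 6 such genes tested, 5 were lower (83.3%, against 42.1% of all genes) and 1 was not called.

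On each gene's brightest probe set, photosynthesis genes were lower in N22 for all 20 tested, of 21 on the array. Over all genes, 42.1% were lower. For 1 of the 20, probe sets were called in opposite directions. LHCP (LOC4333359), a chlorophyll-binding antenna protein, had 9.77, 9.69 and 9.82 in N22, against 14.11, 14.07 and 13.97 in IR64, 19.6-fold lower. OEE3 (LOC4343515, shared), of the oxygen-evolving complex, was 23.9-fold lower. Rubisco activase (rca, LOC4351224, shared) was 26.4-fold lower, and RBCS (LOC4351966, shared), the small subunit of Rubisco, 9.91-fold. At 2-fold or more, 18 of the 20 were lower, where 27.1% of all genes were. The differences ran from -5.26 to -0.55 with a median of -3.53. The arrays did not overlap for any of the 20 genes, where 84.4% of all genes did not overlap.

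**Figure D3:**
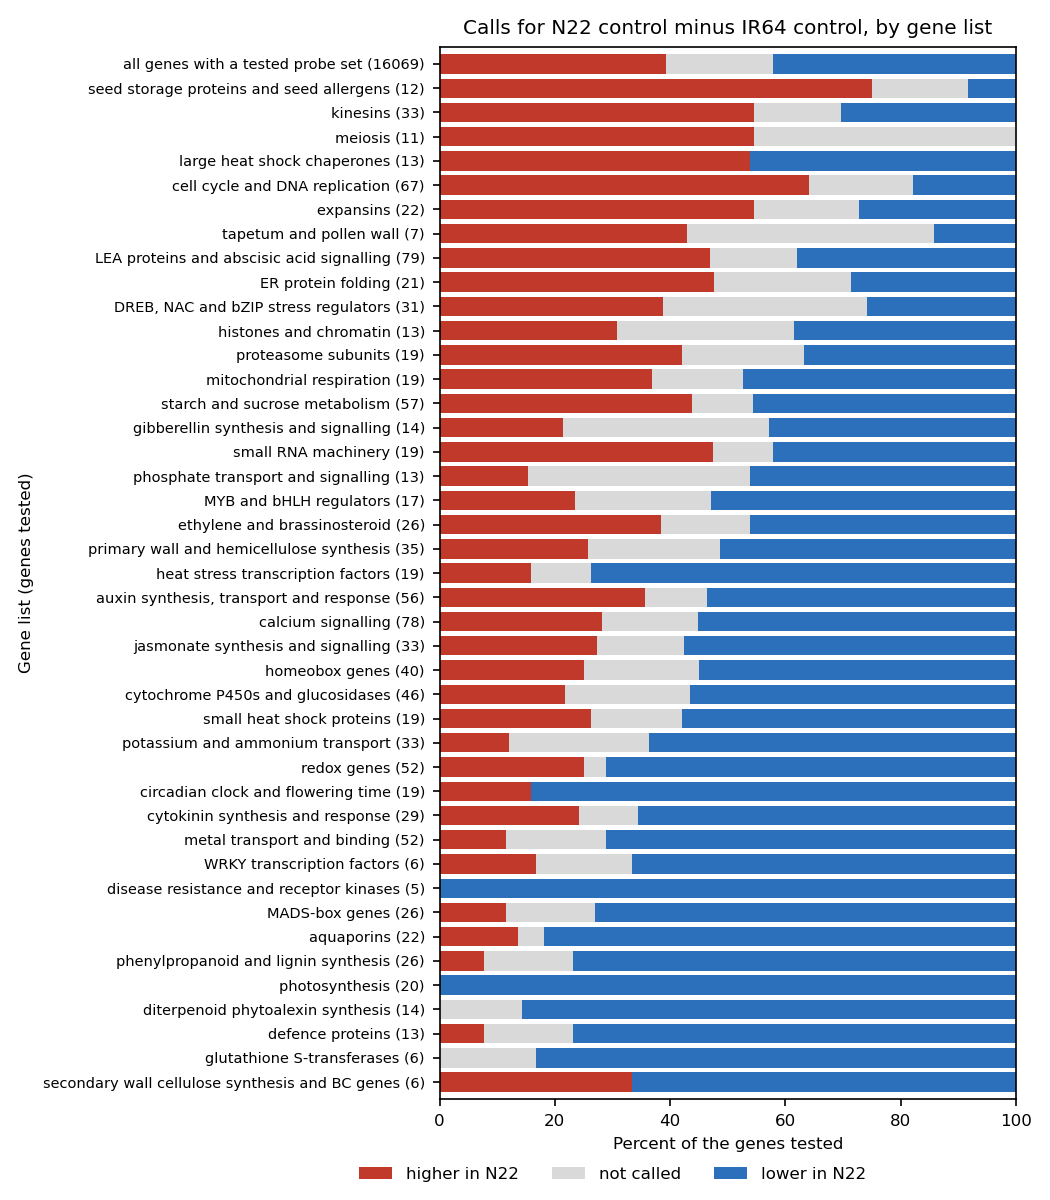
Share of the tested genes of each list that were called higher in N22 (left), not called (middle) or called lower in N22 (right) between N22 control and IR64 control, ordered by the list's median difference, with all 16069 genes in the top row. Photosynthesis (20 of 20 lower) and diterpenoid phytoalexins (12 of 14 lower) lie far from the 42.1% of all genes that were lower, while starch and sucrose genes, 25 higher and 26 lower of 57, lie near it.

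Genes that set floral identity were mostly lower in N22. MADS1 (LOC4332059), a MADS-box gene that specifies the lemma and palea, had 6.78, 6.97 and 6.91 in N22, against 12.22, 12.14 and 11.93 in IR64, 37.1-fold lower. MADS2 (LOC4325001), of lodicule and stamen identity, was 6.71-fold lower, and MADS17 (LOC4336762, shared) averaged 4.09 in N22, with 1 of 3 arrays above background, and 8.47 in IR64. MADS56 (LOC4349237), a flowering-time regulator, had 2.82, 2.54 and 2.55 in N22, against 10.35, 10.29 and 10.32 in IR64, at least 69.4-fold lower. It lay at background on all N22 arrays while IR64 was well above it. Of 26 MADS-box genes tested, of 31 on the array, 19 were lower (73.1%, against 42.1% of all genes), 3 higher (11.5%, against 39.3%) and 4 not called (median -1.91).

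The 3 MADS-box genes that were higher in N22 were MADS22, MADS27 and MADS55. MADS22 (LOC4330805, shared), of the SVP-like class of floral transition regulators, had 10.84, 10.61 and 10.72 in N22, against 5.49, 5.57 and 5.46 in IR64, 37.2-fold higher. MADS27 (LOC4329771) was at least 5.96-fold higher, with 2.29 on every IR64 array, and MADS55 (shared), a relative of MADS22, had 1 of 3 N22 arrays and none of the IR64 arrays above background, and was no longer called once levels under background were set to it (adjusted p = 0.275).

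Clock and flowering-time genes were mostly lower too. Of 19 tested, of 21 on the array, 16 were lower (84.2%, against 42.1% of all genes) and 3 higher in N22 (median -1.28). DTH7 and DTH8, repressors of heading in long days, were lower in N22, DTH7 with a difference of -2.37 ± 0.09 and DTH8 by at least 4.02-fold, and so was the photoreceptor gene PhyB (shared; -3.07 ± 0.15). LFL1 (LOC4325939), a B3 transcription factor that delays flowering when overexpressed, had 8.36, 8.48 and 8.50 in N22, against 3.61, 3.58 and 3.58 in IR64, at least 18.9-fold higher. Among 40 homeobox genes, 22 were lower (55.0%, against 42.1% of all genes), 10 higher (25.0%, against 39.3%) and 8 not called (median -0.62). OSH1 (LOC4333973), a KNOX gene of shoot meristems, was at least 77.9-fold lower on one probe set and 5.51-fold lower on its brighter, shared one, so the size depends on the probe set.

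Water and ion transport genes leaned toward lower values in N22. Of 22 aquaporin genes tested, of 24 on the array, 18 were lower (81.8%, against 42.1% of all genes), 3 higher and 1 not called (median -2.34). PIP2-2 (LOC4330049, shared), a plasma membrane water channel, had 8.35, 8.46 and 8.50 in N22, against 12.59, 12.66 and 12.64 in IR64, 18.4-fold lower, and PIP1-1 (LOC4330248) was 24.3-fold lower. Lsi1 (-3.67 ± 0.10), a silicon channel, was lower. The 3 that were higher were vacuolar channels, TIP3-1 (above), TIP3-2 (at least 32.1-fold) and TIP2-1, which lay at background on all 6 arrays and was no longer called once levels under background were set to it. Among 33 potassium and ammonium transporter genes, 21 were lower (63.6%, against 42.1% of all genes), 4 higher and 8 not called (median -0.82). The ammonium transporter gene AMT3-2 (LOC4334717, shared) had 6.07, 6.06 and 6.08 in N22, against 10.96, 10.74 and 11.11 in IR64.

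Small heat shock protein genes differed in both directions without heat. These proteins hold unfolding proteins in solution. All 19 genes on the array whose names matched were tested. HSP17.9B (LOC4325695) averaged 5.91 ± 0.04 in N22 and 13.06 ± 0.06 in IR64 (SD, n = 3 each), 141-fold lower in N22 (adjusted p = 2.12e-14). HSP18.8 (LOC4343386, shared) was 15.9-fold lower, HSP16.0 (LOC4340661) at least 12.3-fold and hsp17.9 (LOC4332357) 3.03-fold. The arrays of each cultivar lay apart for all 4, as they did for 84.4% of all genes, and the rules that named them favour this.

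HSP16.9A (LOC4325697) went the other way, with 12.58 ± 0.04 in N22, against 7.11 ± 0.13 in IR64 (SD, n = 3 each), 44.2-fold higher in N22 (adjusted p = 5.82e-13). HSP26.7 (LOC4332237), a plastid type, had 9.17, 9.14 and 8.88 in N22, against 3.93, 3.87 and 4.36 in IR64, higher in N22 with 1 of 3 IR64 arrays above background. HSP23.2 (LOC4335956) was at least 6.41-fold higher. HSP18.0 (shared) was higher by 1.56 ± 0.05 on one probe set, while its other probe set had a mean of 5.81 in N22 and 9.07 in IR64. In all, 5 of the 19 genes were higher in N22, 11 lower and 3 not called, with a median of -0.78. These shares, 26.3% higher and 57.9% lower, stand against 39.3% and 42.1% of all genes.

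**Figure D4:**
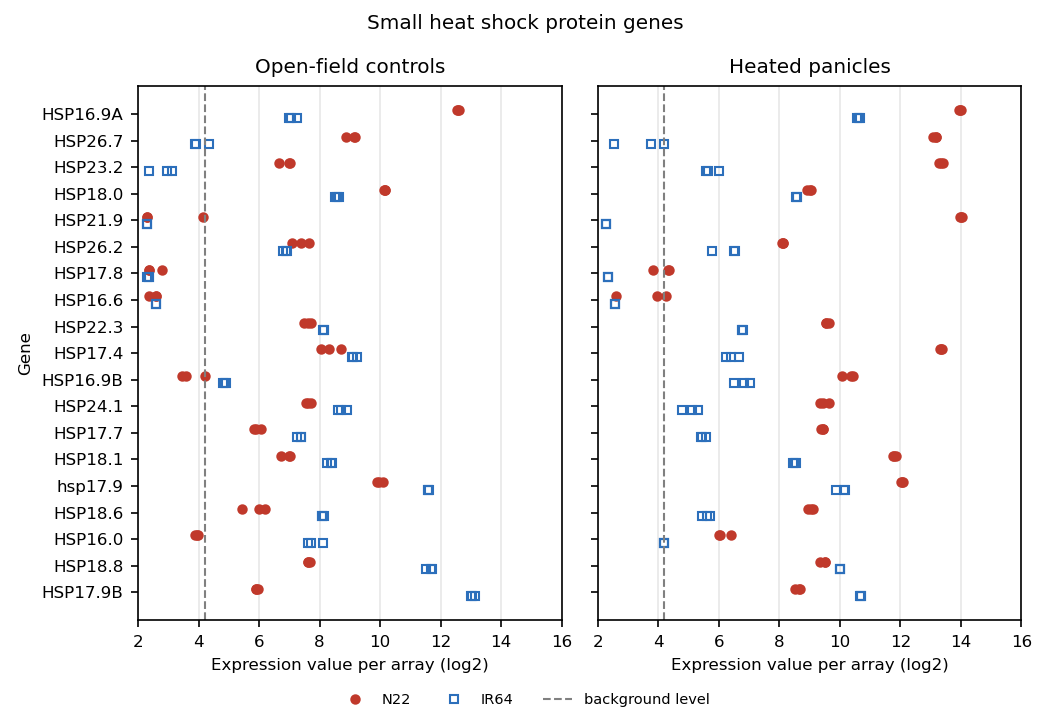
Log2 value on each array for the 19 small heat shock protein genes, N22 as filled circles and IR64 as open squares, in open-field controls (left panel) and in heated panicles (right panel), with the background level as a dashed line. HSP17.9B is lowest relative to IR64 in the controls and HSP16.9A highest, and in the heated panicles 17 of the 19 genes were called higher in N22.

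Heat stress transcription factor genes (HSF), whose products regulate heat shock genes, were mostly lower in N22. Of 19 tested, of 20 on the array, 14 were lower (73.7%, against 42.1% of all genes), 3 higher and 2 not called (median -0.42). HSFA2D (LOC4331707, shared) had 7.13, 7.47 and 7.49 in N22, against 11.22, 11.33 and 11.25 in IR64, 15.0-fold lower. HSF23 (LOC4347259) was 7.39-fold and HSF24 (LOC4347637) 4.50-fold lower. HSFA2C (LOC4348646) averaged 4.43 in N22, with 1 of 3 arrays above background, and 8.25 in IR64 on its brightest probe set, with means of 5.04 in N22 and 4.41 in IR64 on a second one. The genes higher in N22 were HSF01 (at least 1.63-fold), HSF07 (0.54 ± 0.17) and HSF02 (at least 1.15-fold). The call of HSF02 was lost with levels under background set to it (adjusted p = 0.0832) and that of HSF07 without the third N22 control array (adjusted p = 0.0528).

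Large chaperone genes differed both ways. Of 13 tested, 7 were higher in N22 (53.8%, against 39.3% of all genes) and 6 lower (46.2%, against 42.1%). Their median was 0.61, and 0.00 once levels under background were set to it. The HSP90 genes HSP81-2 (LOC4347402) and HSP81-3 (shared) were higher by 0.61 ± 0.05 and 0.73 ± 0.04, and HSP81-1 (LOC4345951; -0.38 ± 0.04) was lower, all from means above 13 in both cultivars. CLPB1 (LOC4339343), the HSP101 disaggregase, had 7.57, 7.52 and 7.39 in N22, against 6.56, 6.62 and 6.78 in IR64, 1.79-fold higher. The Clp ATPase genes lay at both ends of the list. CLPC2 was 3.14-fold lower in N22, and so were CLPD2 (-2.56 ± 0.23) and CLPD1 (-2.50 ± 0.29), each with 2 of 3 N22 arrays above background, while CLPC3 was 3.96-fold higher; CLPD1 and CLPC3 were picked after their values were seen. Of 21 ER folding genes, 10 were higher (47.6%, against 39.3% of all genes), 6 lower (28.6%, against 42.1%) and 5 not called (median 0.06). PDIL1-4 (above) and PDIL1-5 (shared, 3.33 ± 0.16) lay at the upper end.

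Genes of DNA replication and the cell cycle were more often higher in N22. Of 67 tested, of 69 on the array, 43 were higher (64.2% against 39.3% of all genes), 12 lower (17.9%) and 12 not called, with a median of 0.56 that stayed positive under each scaling tried. CYCD5-2 (LOC4352668), a D-type cyclin, had 10.43, 10.57 and 10.51 in N22, against 7.82, 7.64 and 7.68 in IR64, 6.91-fold higher. MCM3 (LOC4339099), part of the helicase that opens replication origins, had 9.67, 9.65 and 9.46 in N22, against 8.00, 8.09 and 7.96 in IR64, 2.99-fold higher. CYCT1-1 (1.61 ± 0.05) and the single-strand binding protein gene RPA1C (at least 2.61-fold) were higher too. The lower ones included CYCD4-2 (-2.09 ± 0.10), CYCD5-1 (shared; -2.06 ± 0.13, with 2 of 3 N22 arrays above background), KRP5 (-1.18 ± 0.13), an inhibitor of cyclin-dependent kinases, and CDKF-3 (-0.75 ± 0.08).

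Kinesins include the motors of spindle and cell plate. Of 33 genes, 18 were higher (54.5%, against 39.3% of all genes), 10 lower (30.3%, against 42.1%) and 5 not called (median 0.77). KIN17, among the 18, was matched by symbol, and whether it is a kinesin was not checked. KIN13B (LOC4326684, shared) had 11.50, 11.51 and 11.49 in N22, against 7.83, 7.69 and 7.47 in IR64, 14.3-fold higher. Of 11 meiosis genes tested, of 12 on the array, 6 were higher (54.5%, against 39.3% of all genes), 0 lower and 5 not called. Their median was 0.75, and 0.06 once levels under background were set to it. SPO11B (LOC4344697), a relative of the enzyme that breaks DNA for crossovers, was 4.73-fold higher and DMC1 (LOC4351482), a meiotic recombinase, 2.98-fold, both from values above background on all 6 arrays.

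Cell expansion, hormone and redox genes held members far out in both directions. Of 22 expansin genes, whose products loosen walls, 12 were higher (54.5%, against 39.3% of all genes), 6 lower (27.3%, against 42.1%) and 4 not called (median 0.52). EXPB9 (LOC4349301) had 4.63, 4.77 and 5.18 in N22, against 10.57, 10.47 and 10.69 in IR64, 52.5-fold lower, and EXPB10 was at least 5.33-fold lower, while EXP6 (2.50 ± 0.13) and EXLA3 (2.26 ± 0.12) were higher. Of 29 cytokinin genes, 19 were lower (65.5%, against 42.1% of all genes), 7 higher (24.1%, against 39.3%) and 3 not called (median -1.32). The lower ones included the response regulators RR9 (-4.48 ± 0.10) and RR4 (shared, -4.13 ± 0.13).

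The jasmonate pathway carries wound and floret-opening signals. Of 33 genes tested under its names, 19 were lower (57.6%, against 42.1% of all genes) and 9 higher (27.3%, against 39.3%). A further 5 were not called, and the median was -0.59. Among the 9, DAD1, TIFY1A, TIFY2A and TIFY2B were matched by symbol, and whether they act in this pathway was not checked. LOX9 (LOC4345994), a lipoxygenase, had 2.29, 2.64 and 2.29 in N22, against 9.01, 8.96 and 9.13 in IR64, at least 28.5-fold lower. The repressor gene JAZ8 (LOC4347164) was 22.1-fold lower and JAZ2 (LOC4342421, shared) at least 5.74-fold higher. The redox genes code for catalases, superoxide dismutases, ascorbate peroxidases, thioredoxins and glutaredoxins among others. Of 52 tested, 37 were lower (71.2%, against 42.1% of all genes), 13 higher and 2 not called (median -0.96). TRXH (LOC4342593, shared), a thioredoxin, was 18.1-fold lower, the catalase gene catA (shared; -3.23 ± 0.07) was lower, and the ascorbate peroxidase gene APX5 (LOC4351664) was at least 28.0-fold higher. Of 56 auxin genes, 30 were lower (53.6%, against 42.1% of all genes), 20 higher (35.7%, against 39.3%) and 6 not called (median -0.46).

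All 19 proteasome subunit genes tested lay between -0.74 and 0.95, with 8 higher, 7 lower and 4 not called, a median of -0.03 (0.18 with each array centred on its median) and 0 differences of 2-fold. The proteasome shares, 42.1% higher and 36.8% lower, lie near the 39.3% and 42.1% of all genes. Of 19 genes of mitochondrial respiration, 7 were higher (36.8%), 9 lower (47.4%) and 3 not called, also near those of all genes. Their median was -0.05, and 0.15 after that centring. At 2-fold or more, 4 were higher and 3 lower, and AOX1, the alternative oxidase gene, was at least 7.68-fold lower in N22.

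Some genes without an informative name in the gene table differed by as much. LOC4329275 (shared probe set) had 15.11, 15.07 and 15.00 in N22, against 3.19, 2.29 and 2.29 in IR64, at least 1851-fold higher. LOC4324532 (at least 1711-fold) and LOC4343901 (at least 1563-fold), both on shared probe sets, stood beside it. LOC9270227 (shared) had 15.50, 15.52 and 15.50 in N22, against 4.24, 2.29 and 2.33 in IR64, of which 1 lay above background. In the other direction LOC4328727 (shared) had 2.29, 2.50 and 2.33 in N22, against 14.75, 14.65 and 14.59 in IR64, at least 1413-fold lower. LOC4327118, LOC4352856 and LOC4346594 were at least 948-fold, 914-fold and 439-fold lower. H2B.10 (LOC4324495), a histone H2B gene, had 2.29, 2.31 and 2.92 in N22, against 10.20, 10.79 and 10.63 in IR64, at least 80.9-fold lower.

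Many probe sets were above background in a single cultivar. On all 3 N22 control arrays but none of the IR64 control arrays, 1441 probe sets exceeded 4.20, and 1772 did so in IR64 alone, against 16665 above it on all 6 arrays. Those of N22 alone had a median mean of 6.19, and those of IR64 alone 5.78. In the heated panicles, 894 of the 1441 were again found in N22 alone, 62.0% of them and 64.3% of the 1390 seen in N22 alone there. For IR64 the overlap was 494, 27.9% of the 1772 and 58.2% of the 849 seen in IR64 alone under heat. Of the 1772, 540 were at background on all 3 IR64 heat arrays and 458 were above background on all 3 N22 heat arrays.

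Probe sets of 1 gene did not always give the same answer. Of 2322 genes with 2 or more tested probe sets, 195 (8.40%) had probe sets called in opposite directions, 49 (2.11%) of them at 2-fold or more each way, and for 1109 (47.8%) all probe sets were called the same way. Cht2, GLUA2, HSP18.0 and HSFA2C (above) are among those called both ways. For such genes the direction given holds for the probe set named, not for the gene.

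The same cultivar difference could be read a second time in the heated panicles, which share no array with the controls. There 18795 probe sets (63.1%) were called, as were 74.4% of the 16069 genes (5460 higher and 6499 lower in N22), and 13727 probe sets were called in the same direction in both conditions, 65.2% of the control calls and 73.0% of the heat calls. A further 1857 were called in opposite directions. Of the 2-fold control differences, 80.1% of those higher and 75.7% of those lower in N22 were called the same way under heat. The difference itself changed with heat for 16508 probe sets (55.4%, interaction at adjusted p under 0.05) and for 65.7% of genes. With levels under background set to it, the change was called for 14645 probe sets (49.1%).

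**Figure D5:**
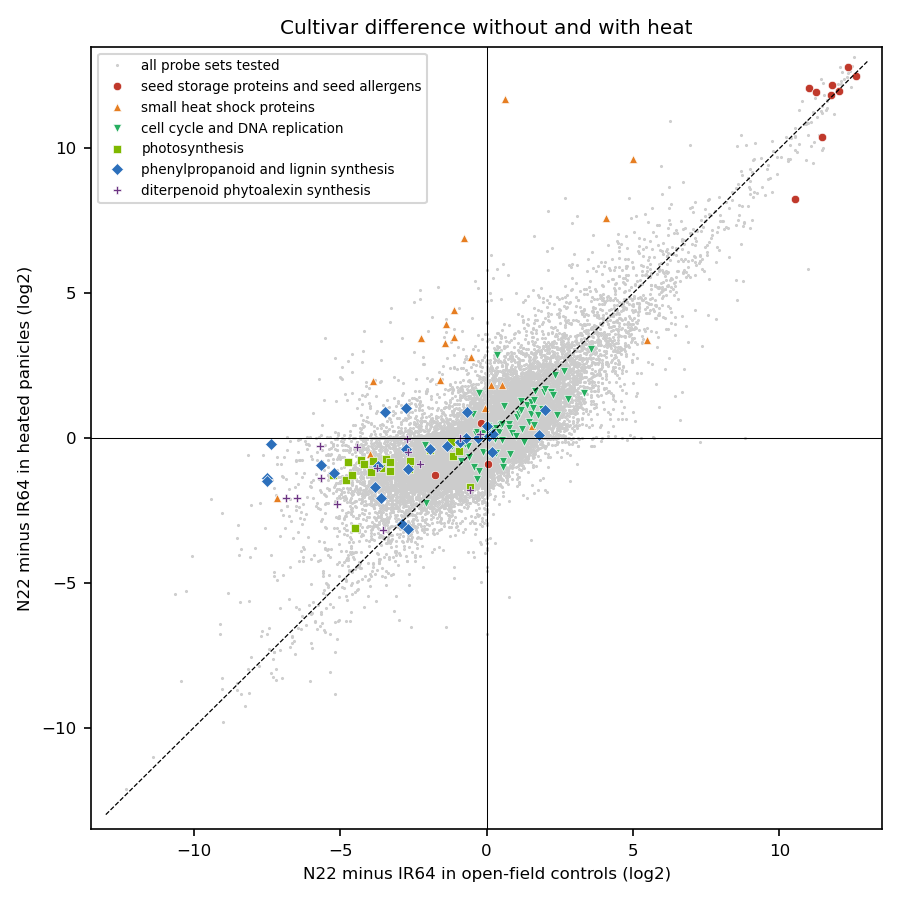
Difference N22 minus IR64 (log2) in open-field controls, on the horizontal axis, against the same difference in heated panicles, on the vertical axis, for all probe sets tested (grey) and for the genes of 6 lists on their brightest probe set; the dashed line marks equal differences. The seed storage genes higher in N22 lie near the line at the upper right, lignin, phytoalexin and photosynthesis genes mostly lie left of 0 in controls and closer to 0 in heated panicles, and most small heat shock genes lie above the line.

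Where a cultivar lies at background, the size of its difference, and of a change in it, is not measured, so the heated arrays are set beside the controls here with all levels under background set to 4.20. The excess in N22 is then a lower limit. Seed storage and allergen genes had medians of 9.95 in controls and 10.04 in heated panicles on this scale. RAG2, PROLM25, TIP3-1 and GLUA1 lay above background on all 3 N22 arrays and at background on all 3 IR64 arrays in both conditions. The excess of RAG2 was at least 10.91 in controls and at least 10.61 in heat, that of PROLM25 at least 10.17 and 10.09, and that of TIP3-1 at least 10.50 and 10.57. H2B.10, LOX9, MADS56 and OSH1 on its dimmer probe set showed the opposite pattern in both conditions, at background on all 3 N22 arrays and above it on all 3 IR64 arrays.

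Several groups that were lower in N22 controls differed less in heated panicles. With levels under background set to it, the phenylpropanoid median was -2.42 in controls and -0.20 in heat. As deposited, the change was called for 20 of 26 genes, against 65.7% of all genes, and was positive for 18 of the 20. The share of positive changes over all genes was not counted. Taking groups that were low in N22 controls by itself favours a positive change. PAL06 was at -7.49 in controls and -1.39 in heat, a change of 6.10, and BC1 at -7.14 in controls and -0.65 in heat. 4CL5 averaged 11.07 in IR64 controls and lay at background in N22 controls, while in heat all 3 IR64 arrays and 2 of 3 N22 arrays lay at or under background. CESA4 on its brightest probe set was at -5.64 in controls and 0.12 in heat. The secondary wall list had medians of -5.01 in controls and 0.06 in heat on the scale with background set.

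The tissue markers and RNA controls also differed between the conditions. The stem wall markers include CESA4, CESA7, CESA9 and BC1 of the secondary wall list. The green tissue markers include genes of the photosynthesis list. These markers are therefore not a reading separate from those lists. Stem secondary wall markers averaged 5.19 to 5.38 in N22 and 5.35 to 5.50 in IR64 in heat, where IR64 controls had 9.93 to 10.06. Leaf or green tissue markers averaged 11.18 to 11.35 in N22 and 12.42 to 12.52 in IR64 in heat, where N22 controls had 8.42 to 8.47. The 3′ signal of GAPDH exceeded its 5′ signal by 8.81 in N22 and 7.93 in IR64 in heat, against 8.59 in N22 and 4.79 in IR64 in controls. The part of these in the changes was not tested.

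Photosynthesis genes had a median of -3.53 in controls and -0.86 in heat, and phytoalexin genes -3.64 in controls and -0.97 in heat, or -2.40 and -0.70 with levels under background set to it. LHCP averaged 12.33 in N22 and 13.09 in IR64 under heat, a difference of -0.76, against -4.29 in controls. CYP701A8 averaged 9.09 in N22 and 11.16 in IR64 under heat, a difference of -2.07, against -6.85 in controls. Cell cycle genes had medians of 0.56 in controls and 0.33 in heat.

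The small heat shock list had medians of opposite sign. Its median was -0.78 in controls and 3.29 in heat, where 17 of 19 were higher in N22 and 2 lower, against 5460 higher and 6499 lower of 16069 genes. The change of the difference was called for 18 of 19 genes, against 65.7% of all genes, and 16 of the 18 were positive. The share of positive changes over all genes was not counted. HSP17.4 (LOC4332360), named for this change after its values were seen, was at -0.78 ± 0.15 in controls and 6.92 ± 0.15 in heat. HSP17.9B was lower in N22 in both (-7.14 in controls and -2.07 in heat), and HSP16.9A was higher in both (5.47 and 3.37). For heat stress transcription factors the medians were -0.42 in controls and -0.17 in heat.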

How the data were processed

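Panicle RNA of 12 samples was hybridised to the Affymetrix rice array, and the deposited table holds log2 values that the authors made with GCRMA, per the submitters' processing notes; neither a version nor a filter is stated there. The values ran from 2.29 to 15.8, and 44.6% lay within 0.01 of the lowest; the number of arrays limits the precision. No column was left unused. From 57381 probe sets, 123 control and 64 reporter probe sets were removed, and the 29801 above the table's median (2.35) on at least 3 of 12 arrays were tested.

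A limma (version 3.58.1, R 4.3.3) fit of group means over all 12 arrays gave N22 minus IR64 in controls, the same in heat, and their difference (interaction), with Benjamini-Hochberg adjusted p under 0.05 as a call and SE from the fit. Fold bounds written "at least" compare against the background level (4.20) where all 3 arrays of a cultivar lay at or under it. Single measures of RNA quality were compared by exact permutation.

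Gene names came from the platform annotation, in which 22436 probe sets pair with 1 gene and 95 with several; all 17905 genes were found in the RefSeq gene table, and 2454 have an informative name. Lists hold genes whose names matched a pattern and use each gene's brightest probe set. Named genes are the 15 largest differences each way with 3 arrays of one cultivar above those of the other, up to 4 members a direction with the smallest adjusted p in each list, the 4 largest each way without an informative name, and tissue markers; others are marked as picked after their values were seen. The members and lists were chosen with earlier results of these data known. The fit was tested on simulated data. Alternatives were other scalings, filters, variance models and arrays left out.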

Additional observations from a re-analysis of the deposited data

Results flagged for a closer look

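The results below were singled out because the cultivar difference itself differed between heated and control panicles, by the limma interaction (adjusted p under 0.05). The genes were drawn only from those named for the largest differences in controls, with or without an informative name. That choice by itself favours a smaller difference in heat. Each value is the N22 minus IR64 difference in heat minus that in controls, on the log2 scale of the deposited values. Over all probe sets tested, this held for 16508 (55.4%), so a single gene on this list is not unusual. No group had the 4 samples needed to look for an array far from its group.

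For genes above background in both cultivars in both conditions, the values were 6.10 (PAL06), 6.01 (4CL3), 5.59 (Cht5), 5.07 (HSP17.9B), 4.77 (CYP701A8), 4.39 (CPS2) and 2.64 (Cht2), each lower in N22 controls with a smaller deficit in heat, and 0.66 (CPK23), higher in N22 controls with a larger excess in heat. BC1 (6.49) and CIN1 (4.18) had 2 of 3 N22 control arrays above background.

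For the other genes IR64 or N22 lay at background on all 3 arrays of at least 1 group, so the size of the change is not measured, and the value once levels under background were set to it follows the deposited one. It was 1.08 and 0.09 for GLUA2, 0.70 and 0.57 for GluB5, 0.49 and 0.36 for GLUA3, and 0.38 and 0.20 for GLUD1. It was -2.28 and -2.38 for RAG1, -1.05 and -0.78 for RA5, -0.91 and -0.81 for EM, and -0.66 and -1.10 for ALK. For LTP-2 it was -0.72 and -0.03, and the change was no longer called (adjusted p = 0.821), while it was still called for the other 23 of the 24 named genes. Among genes at background in N22 controls, it was 7.18 and 6.87 for 4CL5, 6.82 and 5.76 for CESA4 (shared probe set), 5.23 and 3.85 for LOC4346594, 2.02 and 1.93 for LOC4352856, and 1.04 and 1.12 for MADS56.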

How the results depend on the processing

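The counts of called probe sets (21047), of 2-fold calls (12423) and of calls shared with heated panicles (13727) stayed within 1.5 times under each alternative run. Of the called probe sets, 137 changed sign with median centring and 3 with quantile normalization, none of them called the other way and none over 0.20 in size, and 0 did so under the other alternatives. No 2-fold call changed sign. Of 305 genes the lists and rules name, 15 lost their call under at least 1 alternative. Raising values to background ended 3217 calls, 1024 of them at 2-fold. Median centring gave 23653 calls, 61.4% of them higher in N22 against 49.6%, and shifted the median of all probe sets by 0.20; quantile normalization gave 21224 (52.5% higher). Raising values to the background level gave 17925 calls, the stricter filter 18675 and no filter 19824. With one array left out, calls ranged from 20153 to 21064, 2-fold calls from 12419 to 12524, and shared calls from 13186 to 13553. The replicate numbers did not pair the samples (correlations of same-numbered control deviations 0.104, -0.0101 and 0.0547), and a fit with the replicate block gave 20910 calls, 12421 at 2-fold and 13627 shared. Of 42 list medians, median centring moved 10 by over 1.5 times and turned 9, all near 0: starch and sucrose (0.14), phosphate (0.07), gibberellin (0.11), ethylene and brassinosteroid (0.02), MYB and bHLH (0.04), proteasome (0.18), mitochondrial (0.15), small RNA (0.09) and histone and chromatin genes (0.19). Quantile normalization moved 10 and turned histones and chromatin (0.04), and the mean over probe sets turned DREB, NAC and bZIP genes (-0.01). Raising values to background moved 18. The stricter filter, which tests fewer genes, moved 12, among them cytochrome P450 and glucosidase genes (-2.26, against -0.77), and turned starch and sucrose (0.01) and small RNA genes (0.41). With one array left out, the median ranged from -0.07 to 0.02 for proteasome genes, -0.11 to 0.09 for histones and chromatin, and -0.01 to 0.09 for DREB, NAC and bZIP genes. Causes were not tested. Low signal is a limit: 7628 tested probe sets lay at background on all 6 control arrays.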

Other observations

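Metal transport genes were mostly lower in N22 controls, 37 of 52 tested (71.2%), with 6 higher and 9 not called, where 42.1% of all genes were lower. ZIP3 (LOC4336971), a zinc transporter gene, had 3.03, 3.21 and 3.10 in N22, against 9.44, 9.35 and 9.32 in IR64, at least 35.9-fold lower. NAS2 (LOC4332607), a nicotianamine synthase gene of iron and zinc transport, went the other way, with 11.05, 10.97 and 11.19 in N22, against 3.97, 3.82 and 3.96 in IR64, at least 117-fold higher. The arrays of the cultivars did not overlap for either gene, as for 84.4% of all genes. YSL16 (-3.06 ± 0.07), a carrier of metal complexes, was lower in N22, and Nramp1 (2.94 ± 0.09), a metal transporter gene, was higher.

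Genes of the small RNA machinery differed both ways, with 9 higher, 8 lower and 2 not called of 19 in controls (median -0.11, and 0.09 with each array centred on its median), near the shares of all genes. DCL2A (shared), a Dicer-like nuclease gene, had 9.03, 8.83 and 8.85 in N22, against 13.02, 12.81 and 12.74 in IR64, 15.5-fold lower. The Argonaute gene AGO1D (shared) was 14.3-fold lower, AGO18 3.75-fold higher and AGO14 at least 6.02-fold higher. Of the chromatin genes, MET1, a maintenance DNA methyltransferase, was 6.60-fold higher in N22. Among calcium sensor genes, CML1 was 44.5-fold and CML29 20.5-fold lower in N22, while the CBL2 gene LOC4352701 was 7.73-fold higher.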
